A study of Mus musculus with 43 samples.

Results

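The genes described here were the classical major histocompatibility complex (MHC) genes of the mouse and their closest partners in antigen presentation, followed in the lasered retina. They were chosen by name and function, with earlier results of these data known, and numbered 10 of the 54532 genes in the count table. The class I group held 6 genes, the heavy chains *H2-K1* and *H2-D1*, their shared light chain *B2m*, the peptide transporter subunit *Tap1* and the immunoproteasome subunits *Psmb8* and *Psmb9*. The class II group held 4, the invariant chain *Cd74* and the chains *H2-Aa*, *H2-Ab1* and *H2-Eb1*.

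MHC class I molecules display peptides from inside the cell on nearly every nucleated cell. Proteasomes, of which the immunoproteasome is the interferon-inducible form, cut proteins into peptides, TAP carries these into the endoplasmic reticulum, and the loaded heavy chain leaves for the surface with β2-microglobulin. MHC class II molecules display peptides taken up from outside and are made mainly by professional antigen-presenting cells. In the retina the resident microglia express little class II at rest and can raise it after injury, together with cells that enter from the blood.

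Total RNA of nine-week-old C57BL/6J mice was sequenced 3, 7 or 14 days (dpl, days post laser) after laser spots had been set in the retina to provoke choroidal neovascularization, a model of the growth of vessels in wet age-related macular degeneration. Treated mice of both sexes drank a mixture of the sodium salts of 3 short-chain fatty acids (SCFA), 67.5 mM acetate, 25 mM butyrate and 40 mM propionate, from 3 weeks before the laser, and control mice of both sexes did not. Every group was lasered, so no comparison here is with an uninjured eye. Each of the 43 libraries was made from a pool of 2 lasered retinas from different mice of a group. Female controls gave 3 libraries at each day, female SCFA mice gave 5, 4 and 4 libraries at 3, 7 and 14 dpl, male controls gave 4, 3 and 3, and male SCFA mice gave 3, 5 and 3.

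The libraries summed to between 14826957 and 21507527 counts (median 17683615). Values are given in CPM, counts scaled to a common library size by the trimmed mean method (TMM), on which 3 counts, taken as the detection floor, came to between 0.134 and 0.246 CPM. The rod and cone photoreceptor list summed to between 44843 and 94003 CPM in every library, as a retina should. The table was laid out in a first run of 31 and a second run of 12 columns, and because the libraries of these runs differed the run was a term in the model. A set of 4 libraries stood apart. The library labelled female control 7 dpl replicate 2 carried reads of Y-linked genes, female SCFA 3 dpl replicate 2 had a pigment epithelium and choroid list sum of 1249 CPM and a scaling factor of 0.703, and male SCFA 7 dpl replicates 1 and 3 had photoreceptor sums of 54658 and 44843 CPM. Results that lean on them are given with and without them.

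The promoters are shown because class I and class II genes share short promoter elements through which they can be switched on together. Windows were taken from the RefSeq promoter table (build GRCm38.p6) for 8 of the 10 genes, and not for *Cd74* and *H2-Ab1*. Those of *B2m*, *Tap1* and *Psmb8* held no match to the letters marked below. The 180 bases before the start are printed for the other 5, each with a match. These windows were chr17:34000348-34000527 on the minus strand for *H2-K1*, chr17:35262914-35263093 on the plus strand for *H2-D1*, chr17:34187331-34187510 on the minus strand for *Psmb9*, chr17:34287824-34288003 on the minus strand for *H2-Aa* and chr17:34305687-34305866 on the plus strand for *H2-Eb1*. All are read 5′ to 3′ on the strand of the gene. Capitals mark exact matches on either strand to CTGATTGG, a Y box as bound by NF-Y, to GGGATTCCC, the core of a κB site, and to AGTTTCACT, the core of an interferon response element.
H2-K1: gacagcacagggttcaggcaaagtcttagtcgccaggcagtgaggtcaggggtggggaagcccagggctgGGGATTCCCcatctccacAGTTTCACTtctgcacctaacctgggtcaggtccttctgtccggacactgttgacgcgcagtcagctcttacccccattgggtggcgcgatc
H2-D1: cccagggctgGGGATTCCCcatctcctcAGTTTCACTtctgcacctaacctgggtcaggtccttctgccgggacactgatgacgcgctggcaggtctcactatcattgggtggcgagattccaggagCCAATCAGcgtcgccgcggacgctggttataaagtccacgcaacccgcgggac
Psmb9: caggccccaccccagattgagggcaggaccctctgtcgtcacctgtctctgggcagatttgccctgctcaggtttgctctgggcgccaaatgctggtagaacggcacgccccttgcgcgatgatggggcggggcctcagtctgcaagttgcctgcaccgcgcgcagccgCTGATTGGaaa
H2-Aa: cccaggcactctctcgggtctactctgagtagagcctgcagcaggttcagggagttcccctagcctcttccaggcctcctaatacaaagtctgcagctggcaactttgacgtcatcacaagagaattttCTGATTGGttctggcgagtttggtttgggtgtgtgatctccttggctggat
H2-Eb1: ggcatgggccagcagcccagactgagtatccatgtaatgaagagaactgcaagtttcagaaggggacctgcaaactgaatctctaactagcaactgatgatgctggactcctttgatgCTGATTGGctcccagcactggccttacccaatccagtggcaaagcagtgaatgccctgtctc

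The κB site and the interferon element lay close together, in that order, in the promoters of both class I heavy chains. In *H2-K1* they began 110 and 92 bases before the start, and in *H2-D1* 170 and 152 bases before it. The κB letters were found in 0.1796% and the interferon letters in 0.2009% of the 32851 promoter windows of this length in the table. The Y box letters lay in *H2-Aa*, *H2-Eb1*, *H2-D1* and *Psmb9*, beginning 51, 62, 53 and 11 bases before the start, against 3.446% of all windows. The motif letters were chosen after the sequences had been read, so the matches are a description. A window without a match says only that these letters are not in it.

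The class I heavy chains and *B2m* gave the most counts, and the class II and peptide-supply genes gave few. All 10 genes passed the filter on low counts and stood above 3 counts in 43 of 43 libraries. *H2-D1* averaged 81.1 CPM over the libraries, *B2m* 70.0 CPM and *H2-K1* 47.5 CPM. *Tap1*, *Psmb8* and *Psmb9* averaged 4.88, 5.95 and 3.20 CPM. The class II genes averaged 7.98 CPM for *Cd74*, 4.47 for *H2-Ab1*, 3.54 for *H2-Eb1* and 3.22 for *H2-Aa*.

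Levels of different genes were ranked per length, taken as all annotated exon bases of a gene. This length can exceed that of a transcript. *H2-Aa* had 3798 exon bases and a longest coding transcript of 1128, and *H2-Eb1* had 1944 and 1669. On CPM per kilobase of exon *B2m* led with 81.4, followed by *H2-D1* with 31.4, *H2-K1* with 16.2 and *Cd74* with 4.75. Each of these steps held in 43 of 43 libraries. The invariant chain thus stood above the class II chains, which it escorts and blocks until peptide is loaded. The next levels were 1.82 for *H2-Eb1*, 1.76 for *Psmb8*, 1.74 for *H2-Ab1*, 0.892 for *Tap1*, 0.874 for *Psmb9* and 0.848 for *H2-Aa*. Of these, *H2-Ab1* stood above *Tap1* in 39 of 43 libraries, while every other neighbouring pair was in the printed order in only 19 to 23 of the 43 libraries. The order below *Cd74* also depends on the length used, so it is no ranking of transcript numbers.

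The class II genes and the immunoproteasome subunits varied most between libraries. The coefficient of variation over the 43 libraries of the class II genes ran from 45.7% for *H2-Ab1* to 57.5% for *H2-Aa*, and *Psmb9* and *Psmb8* reached 46.3% and 43.8%. The heavy chains and *B2m* varied less, by 22.6% for *H2-D1*, 24.7% for *H2-K1* and 31.3% for *B2m*. The lowest library held 17 counts of *H2-Aa* but 744 of *H2-D1*, so counting error is a larger share of the spread of the class II genes.

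**Figure D1:**
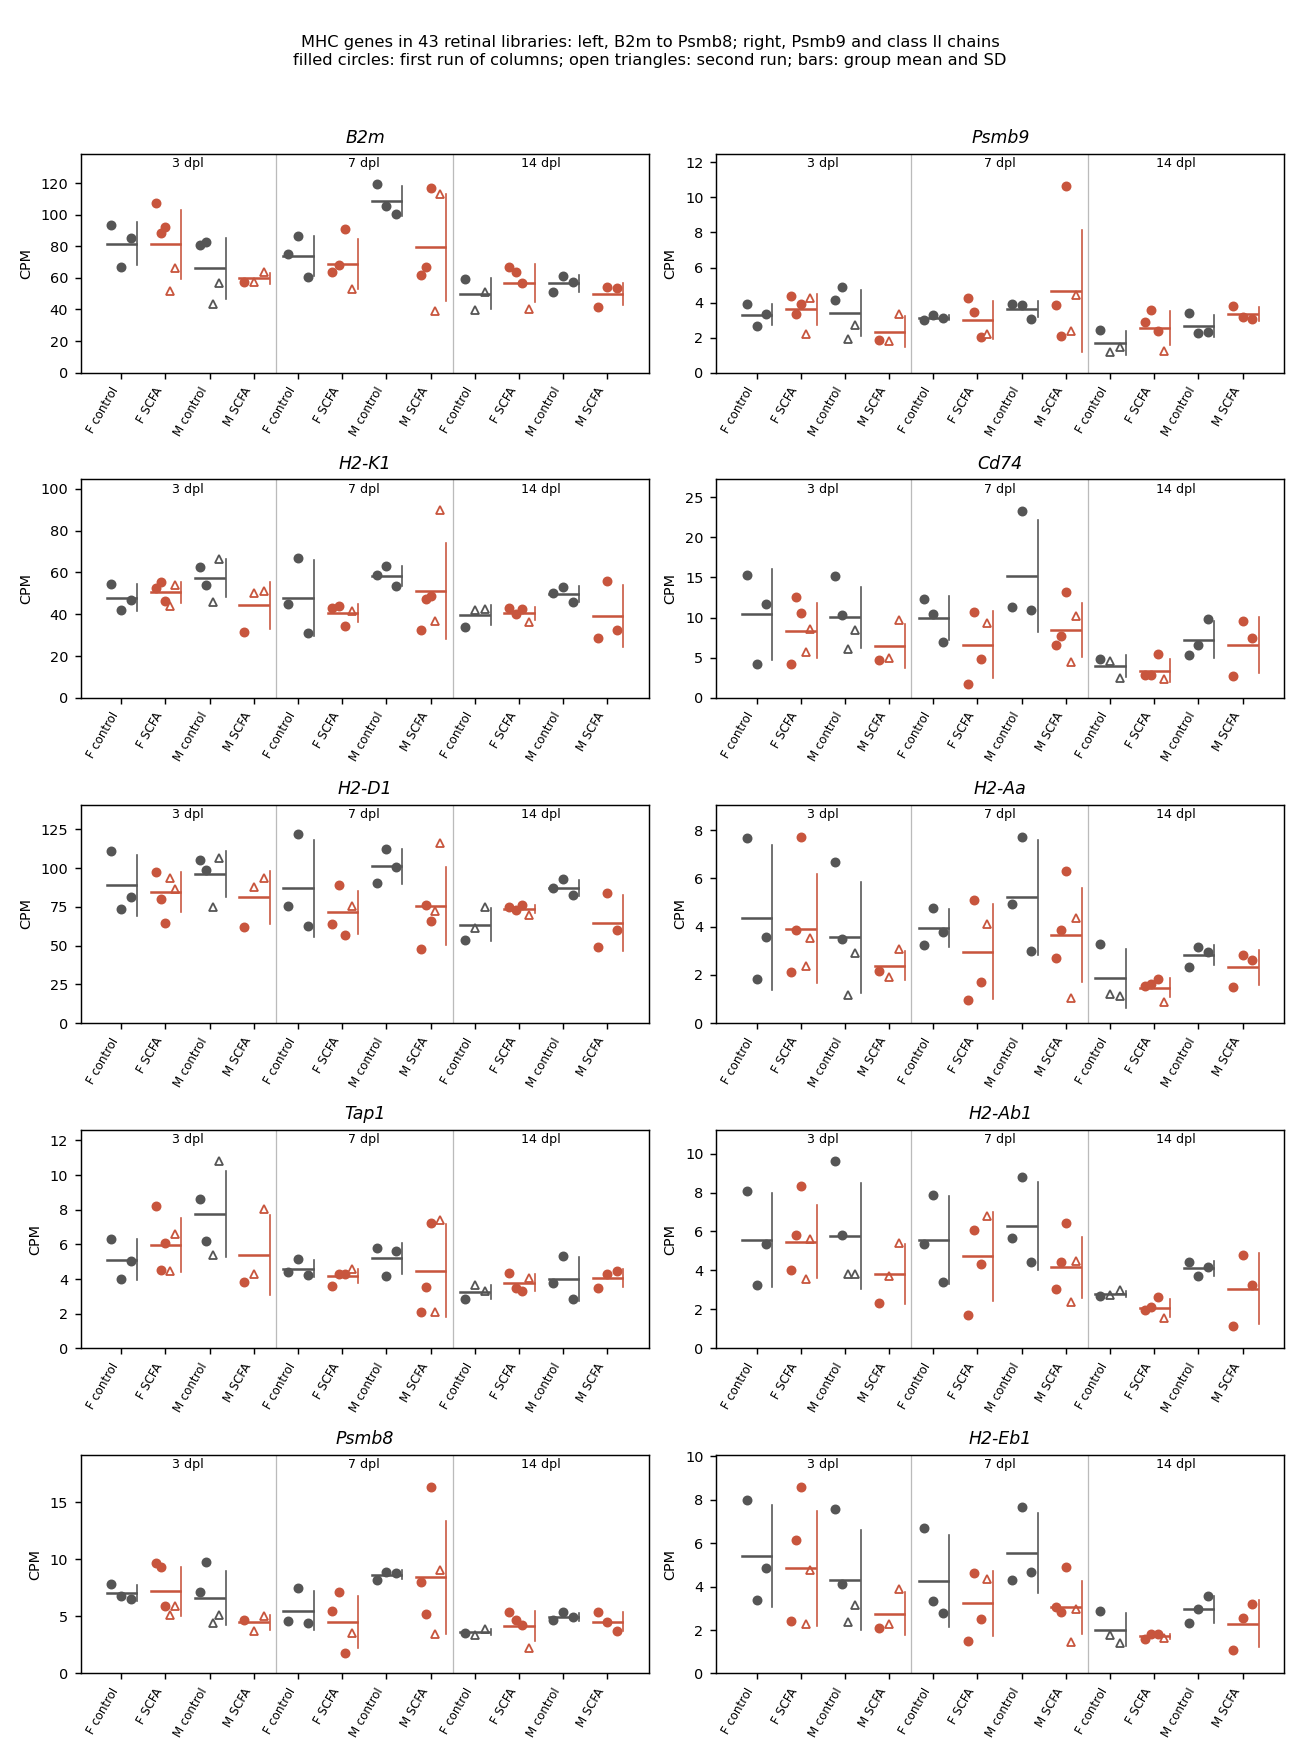
CPM (vertical axis, linear) of each of the 10 genes in each of the 43 libraries, by sex, treatment and dpl, with a bar at the group mean, a line for 1 SD either way, and filled circles or open triangles for the first or second run of columns. *B2m* has its lowest group mean at 14 dpl in each sex and treatment, and most control and SCFA groups of a sex and day overlap.

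*B2m*, which encodes the light chain that every class I molecule needs (chromosome 2, GRCm38 122147686 to 122153083, plus strand), was highest in the male controls at 7 dpl, with 119, 106 and 101 CPM. The male controls at 14 dpl held 50.9, 61.3 and 57.4 CPM, so these groups did not overlap. The 4 male controls at 3 dpl ran from 43.3 to 82.9 CPM and overlapped the 14 dpl group. In female controls *B2m* was at 93.3, 66.6 and 85.2 CPM at 3 dpl, at 75.1, 86.2 and 60.8 at 7 dpl and at 59.0, 39.7 and 51.1 at 14 dpl. The female groups at 7 and 14 dpl did not overlap either. The SCFA libraries spread widely at 7 dpl, with 62.1, 66.9, 117, 38.9 and 113 CPM in males and 63.9, 68.2, 90.7 and 52.8 in females. At 14 dpl they held 41.7, 54.1 and 53.7 CPM in males and 66.8, 63.4, 56.9 and 40.2 in females.

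*H2-D1* and *H2-K1*, the class I heavy chains of this strain (chromosome 17, GRCm38 35262730 to 35267499 on the plus strand and 33996017 to 34000347 on the minus strand), showed smaller differences between days. *H2-D1* reached 90.1, 112 and 101 CPM in the male controls at 7 dpl, and 47.6, 76.2, 65.8, 72.2 and 116 CPM in the male SCFA mice. At 14 dpl the male controls held 87.2, 92.8 and 82.4 CPM and the male SCFA mice 49.4, 84.2 and 60.1. In each case the SCFA libraries included the lowest values but overlapped the controls. In females at 7 dpl the controls held 75.8, 122 and 62.8 CPM and the SCFA mice 64.1, 89.1, 56.8 and 75.5. At 14 dpl the lowest values were those of female controls, with 53.9, 61.3 and 75.1 CPM against 75.1, 73.3, 76.3 and 69.7 in female SCFA mice. *H2-K1* ranged from 28.7 to 90.0 CPM, and both extremes were libraries of male SCFA mice. Of *H2-D1*, 4.64% of its 100-base exon windows were also found in other genes, chiefly *H2-Q1*, so a small part of its reads is uncertain. None of the windows of the other 9 genes was shared.

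The peptide-supply genes lie side by side on chromosome 17, where *Psmb9* (34181987 to 34187764, minus strand), *Tap1* (34187553 to 34197225, plus strand) and *Psmb8* (34197721 to 34201454, plus strand) follow each other within the MHC. *Tap1* and *Psmb9* share 212 exon bases on opposite strands, and *Psmb8* shares 498 with the annotated gene *Gm20496*. Whether the counting used strand is not given in the sources used here, so reads from these bases cannot be assigned with certainty. *Psmb8* was even in the male controls at 7 dpl, at 8.21, 8.92 and 8.84 CPM, and spread from 3.45 to 16.4 CPM in the male SCFA mice of that day. *Psmb9* was at 3.92, 3.84 and 3.09 CPM in those controls and at 3.84, 2.08, 10.6, 2.39 and 4.45 in the SCFA mice. The value of 10.6 CPM and the highest *Psmb8* value came from the same library, replicate 3, one of those that stood apart.

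*Cd74* encodes the invariant chain (chromosome 18, GRCm38 60803848 to 60812652, plus strand). In male controls it was at 15.1, 10.4, 6.15 and 8.45 CPM at 3 dpl, at 11.3, 23.2 and 11 at 7 dpl and at 5.36, 6.57 and 9.83 at 14 dpl. Female controls held 15.3, 4.17 and 11.7 CPM at 3 dpl, 12.3, 10.4 and 6.91 at 7 dpl and 4.86, 4.65 and 2.42 at 14 dpl. In both sexes the 14 dpl controls lay below every 7 dpl control. In SCFA mice the male libraries held 4.70, 4.97 and 9.63 CPM at 3 dpl, 6.59, 7.74, 13.1, 4.5 and 10.1 at 7 dpl and 2.71, 9.59 and 7.47 at 14 dpl. The female SCFA libraries held 4.23, 12.6, 10.6, 5.74 and 8.58 CPM, then 1.69, 10.7, 4.87 and 9.31, then 2.91, 2.81, 5.49 and 2.37 at the same days. SCFA and control libraries of one sex and day overlapped throughout, and the lowest value, 1.69 CPM, was a female SCFA library at 7 dpl.

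The class II chain genes lie together on chromosome 17, *H2-Ab1* at 34257689 to 34269419 (plus strand), *H2-Aa* at 34282744 to 34287823 (minus strand) and *H2-Eb1* at 34305867 to 34316674 (plus strand). *H2-Aa* and *H2-Ab1* encode the chains of the I-A molecule, and *H2-Eb1* the β chain of I-E. C57BL/6 mice are known not to make a working I-E α chain, so *H2-Eb1* is read here as a transcript only. *H2-Eb1* was at 7.56, 4.10, 2.37 and 3.17 CPM in male controls at 3 dpl, at 4.3, 7.68 and 4.69 at 7 dpl and at 2.34, 2.98 and 3.59 at 14 dpl. In female controls the values were 8.0, 3.37 and 4.86 CPM, then 6.70, 3.32 and 2.79, then 2.89, 1.76 and 1.41. The 14 dpl males again lay below all the 7 dpl males, while the female groups overlapped. The female SCFA libraries at 14 dpl were tightly grouped, at 1.58, 1.83, 1.81 and 1.63 CPM, below all of the 5 female SCFA libraries at 3 dpl, which ran from 2.30 to 8.61 CPM.

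*H2-Ab1* and *H2-Aa* were lowest at 14 dpl as well. Over all libraries *H2-Ab1* had its lowest, median and highest values at 2.30, 5.35 and 9.60 CPM at 3 dpl (n = 15), at 1.69, 4.51 and 8.81 CPM at 7 dpl (n = 15), and at 1.15, 2.72 and 4.77 CPM at 14 dpl (n = 13). For *H2-Aa* these values were 1.16, 3.06 and 7.72 CPM, then 0.950, 3.87 and 7.74, then 0.895, 1.81 and 3.26. The median library of 14 dpl thus held less of both chains than the median library of either earlier day, and the ranges overlapped.

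The study asked whether SCFA changed the transcriptome of lasered retinas in each sex and at each day. Genes were called with the thresholds of the study, an adjusted p under 0.1 in edgeR's quasi-likelihood test together with a log2 fold change beyond 1. None of the 10 genes was called in any of the 6 comparisons by edgeR, nor by DESeq2, and 1 gene in 1 comparison, *H2-D1* in males at 7 dpl, had an unadjusted p under 0.05. At that unadjusted threshold stood 10.9% of all tested genes in males and 21.5% in females at 3 dpl, 29.4% and 15.8% at 7 dpl, and 21.2% and 2.91% at 14 dpl, so the 10 genes were not above the background. The share of all 18197 tested genes that was called in these comparisons was 0.011% in males and 2.09% in females at 3 dpl, 3.37% and 0.121% at 7 dpl, and 1.07% and 0% at 14 dpl. Set against these shares, 0 of 10 genes is no result about the genes.

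The sizes of the differences leaned below 0. In males at 3 dpl the log2 fold change of SCFA against control was below 0 for 10 of 10 genes, against 49.5% of all tested genes, and ran from −0.57 for *Tap1* to −0.02 for *B2m*. The smallest adjusted p among them was 0.531 in edgeR's test. In males at 7 dpl 8 of 10 were below 0, against 52.4% of all tested genes. *H2-D1* was the one gene of the 10 with an adjusted p under 0.1, against 22.2% of all genes, with a log2 fold change of −0.52 ± 0.20 (SE, 3 controls and 5 SCFA libraries, 95% interval −0.93 to −0.10) and an adjusted p of 0.080 in edgeR's test. Without the 4 libraries that stood apart it was −0.28 (adjusted p = 0.489), and the adjusted p also passed 0.1 without any one of controls 2 or 3 or SCFA replicates 1, 3 or 4 (0.120 to 0.254). Without SCFA replicate 5, the library with the highest interferon response sum of all (310 CPM), *H2-D1* was at −0.66 (adjusted p = 0.0189, edgeR), and *B2m* and *H2-K1* also had an adjusted p under 0.1. *Cd74* stood at −0.77 ± 0.44 (adjusted p = 0.252, edgeR) and *H2-Eb1* at −0.74 ± 0.41 (adjusted p = 0.227, edgeR). With only the libraries that the study lists for males at 7 dpl, *Cd74* and *H2-Eb1* were called, at −1.01 and −1.19 (adjusted p = 0.0733 and 0.0413, edgeR), while *H2-D1* was at −0.19.

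*Psmb9* went the other way in males at 7 dpl, at 0.56 ± 0.34 (adjusted p = 0.276, edgeR), and this value rested on the replicate with 10.6 CPM. Without that library it was 0.06, and with only the libraries that the study lists it was −0.27. *Psmb8* was at 0.15 in the same comparison and at −0.19 without that library. *Tap1*, *B2m* and the heavy chains had estimates from −0.52 to −0.27. Among the genes of other lists, *Cd80*, a costimulatory ligand, rose by 1.31 in these males (adjusted p = 0.0965, edgeR), at a mean of 0.750 CPM over all libraries. Pigment cell genes differed in the comparisons too. *Pmel* and *Mlana* fell with SCFA in males at 7 dpl and *Rpe65* in males at 14 dpl, and *Ttr*, *Tyrp1* and *Lrat* rose in females at 3 dpl. Their part in the values of the 10 genes was not tested.

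In males at 14 dpl 8 of 10 genes were below 0 (49.2% of all tested genes), led by *H2-D1* at −0.44 ± 0.23 (adjusted p = 0.261, edgeR). In females the number below 0 varied with the day. At 3 dpl 3 of 10 genes were below 0, against 49.2% of all tested genes, and the values ran from −0.24 to 0.36. At 7 dpl 9 of 10 were below 0 (49.8%), from −0.51 for *Cd74* to 0.07 for *Psmb9*. The study reports *Cd74* among the genes lowered by SCFA in females on that day. Here the estimate for *Cd74* had the same direction, but the gene was not called. It was not called with only the libraries that the study lists either. With single libraries left out its estimate ran from −0.83 to −0.15. At 14 dpl 6 of 10 were below 0 (53.1%), the 4 class II genes among them, from −0.53 for *H2-Aa* to −0.32 for *Cd74*, and every adjusted p was 1 in edgeR's test. The class II genes were thus all below 0 in 5 of the 6 comparisons, but single libraries decided some of these signs. In females at 7 dpl *H2-Aa*, *H2-Ab1* and *H2-Eb1* were at 0.16, 0.14 and 0.02 without SCFA replicate 1, *H2-Aa* was at 0.05 without SCFA replicate 3, *H2-Ab1* at 0.15 without control replicate 2 and *H2-Eb1* at 0.21 without control replicate 1. In males *H2-Aa* at 7 dpl was at 0.08 without control replicate 2, and *Cd74* at 14 dpl was at 0.23 without SCFA replicate 1 and 0.15 without control replicate 3. With only the libraries that the study lists, *H2-Aa*, *H2-Eb1* and *Cd74* in females at 14 dpl were at 0.52, 0.15 and 0.09. With any single library left out, the number of the 10 genes below 0 ran from 8 to 10 in males at 3 dpl, 7 to 9 at 7 dpl and 7 to 9 at 14 dpl. In females it ran from 0 to 8 at 3 dpl, 5 to 9 at 7 dpl and 4 to 6 at 14 dpl. These comparisons share no libraries with each other, but the genes of one library vary together, so the genes are not separate observations.

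**Figure D2:**
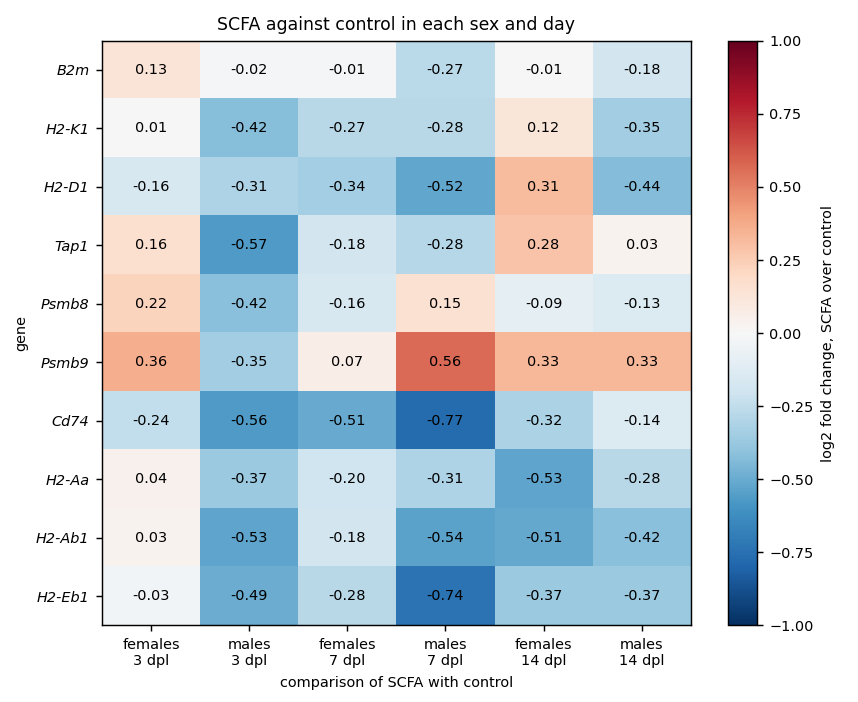
Log2 fold change of SCFA against control from edgeR (colour scale and printed values), for each of the 10 genes (rows) in each sex and day (columns). Most values lie below 0 in males and at 7 dpl in females.

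Averaged over sexes and days in one fit, most estimates for SCFA lay slightly below 0. The log2 fold change was below 0 for 9 of 10 genes, against 49.4% of all tested genes, with a median of −0.22 against 0.00 over all genes. None of the 10 was called, against 0.703% of all genes. *H2-D1* fell by 0.24 ± 0.09 on the log2 scale (95% interval −0.42 to −0.06, adjusted p = 0.036, edgeR, 19 control and 24 SCFA libraries) and was the one gene of the 10 with an adjusted p under 0.1. Of all tested genes 34.7% passed that threshold, 17% of all genes as lower, so 1 of 10 is not above the background. *Cd74* was at −0.42 ± 0.20 (95% interval −0.82 to −0.02, adjusted p = 0.109, edgeR), *H2-Eb1* at −0.38 ± 0.18 (adjusted p = 0.118) and *H2-Ab1* at −0.36 ± 0.17 (adjusted p = 0.123). *B2m* stood at −0.06 ± 0.09, with an interval from −0.25 to 0.13. Without the 4 libraries that stood apart *H2-D1* was at −0.13 (adjusted p = 0.246, edgeR), and *H2-Eb1*, at −0.46, became the gene with an adjusted p under 0.1 (0.0843). With any single library left out *H2-D1* kept an adjusted p under 0.1 (43 of 43 omissions), and between 1 and 5 of the 10 genes passed it. With no block for the runs of columns *H2-D1* was at −0.21 (adjusted p = 0.106, edgeR). With the first run alone it was at −0.30 (adjusted p = 0.0440, edgeR). Of 14 microglia markers 4 also fell in the mean comparison, *C1qa* by 0.53, *Trem2* by 0.39, *Csf1r* by 0.30 and *C1qc* by 0.22 (adjusted p from 0.000974 to 0.091, edgeR), and none rose. Their part in the values of the 10 genes was not tested.

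The study also compared male with female retinas. Among controls none of the 10 genes was called between the sexes at 3, 7 or 14 dpl, against 0.0385%, 0.0275% and 0.44% of all tested genes. The 7 dpl females included replicate 2, the library with Y-linked reads. Over omissions of single libraries there, males against females ran from 0.03 to 0.54 for *H2-D1* and 0.06 to 0.61 for *H2-K1*. Without replicate 2 both had an adjusted p of 0.653 in edgeR's test. In these omissions 0 to 1 of the 10 genes was below 0, against 51.6% of all tested genes in the full fit. The widest difference by adjusted p was *H2-D1* at 14 dpl, which stood 0.61 ± 0.24 higher in males on the log2 scale (adjusted p = 0.158, edgeR). At 14 dpl 2 of the 3 female controls were from the second run of columns and all 3 male controls from the first. Sex and run were thus hard to separate there, although the run was a term in the model. The response to SCFA was compared between the sexes with an interaction term. No gene of the 10 was called at any day, by edgeR or DESeq2, and 1 had an unadjusted p under 0.05 at 14 dpl, *H2-D1*, against 10% of all tested genes (12.6% and 7.32% at 3 and 7 dpl). Of the 18197 tested genes edgeR called 0 at each day, and DESeq2 called 35, 15 and 0. At 3 dpl all 10 differences, male response minus female response, were below 0, from −0.73 for *Tap1* to −0.15, with adjusted p values from 0.481 upward in edgeR's test. At 14 dpl *H2-D1* had the smallest p of the 10, with a difference of −0.75 (adjusted p = 0.485, edgeR), with SCFA males below and SCFA females above their controls.

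The days after the laser were compared next. Between 3 and 7 dpl none of the 10 genes was called in controls or in SCFA mice by edgeR or DESeq2, where 0% of all tested genes was called. None of the 10 had an unadjusted p under 0.05, against 6.55% of all tested genes in controls and 8.55% in SCFA mice, and the log2 fold changes ran from −0.33 to 0.22 in controls and from −0.36 to 0.19 in SCFA mice. From 7 to 14 dpl all 10 genes were below 0 in controls, against 52.1% of all tested genes, and all 10 in SCFA mice, against 51.9%. In controls *Cd74* was at −1.12 ± 0.37 (adjusted p = 0.391, edgeR), *H2-Eb1* at −0.87 ± 0.34 and *B2m* at −0.61 ± 0.17 (adjusted p = 0.36). In SCFA mice *H2-Aa* was at −0.98 ± 0.36, *H2-Ab1* at −0.85 and *B2m* at −0.57 ± 0.15 (adjusted p = 0.129, edgeR). At an unadjusted p under 0.05, 6 of 10 genes were lower in each treatment, against 3.68% of all tested genes in controls and 8.76% in SCFA mice. None of the 10 passed after adjustment in either treatment, where 0% and 0.0055% of all genes were called.

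The separation of the control groups shows this per sex. In male controls 5 of 10 genes, *B2m*, *H2-K1*, *Psmb8*, *Cd74* and *H2-Eb1*, had every 14 dpl library below every 7 dpl library, against 8.73% of all tested genes. In female controls 6 of 10 did, *B2m*, *Tap1*, *Psmb8*, *Psmb9*, *Cd74* and *H2-Ab1*, against 5.36%. *B2m*, *Psmb8* and *Cd74* were on both lists. The female controls at 14 dpl included 2 libraries of the second run of columns and those at 7 dpl none, and 4 of the 10 genes, against 52% of all tested genes, differed between the runs at an adjusted p under 0.1. The second run was lower for *B2m* by 0.44 and for *Psmb8* by 0.56 on the log2 scale (adjusted p = 0.00307 and 0.0075, edgeR). The male controls of both days were all from the first run.

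The 3 and 14 dpl libraries, and the 7 and 14 dpl libraries, were then compared over both sexes and treatments, a contrast chosen after the values had been seen. From 3 to 14 dpl all 10 genes were below 0, against 47.6% of all tested genes. An adjusted p under 0.1 was reached by 6 of 10, all lower, against 1.63% of all genes. *H2-Eb1* fell by 0.99 ± 0.22 on the log2 scale (95% interval −1.44 to −0.53, adjusted p = 0.0206, edgeR) and *H2-Ab1* fell by 0.82 ± 0.22 (adjusted p = 0.0482). *Cd74* fell by 0.81 ± 0.25 (adjusted p = 0.0978) and *B2m* fell by 0.49 ± 0.11 (adjusted p = 0.0255, edgeR). The peptide-supply genes *Tap1* and *Psmb8* fell by 0.64 and 0.62 (adjusted p = 0.0451 and 0.0543). *H2-Aa* was at −0.86 ± 0.27 (adjusted p = 0.106), and *H2-D1*, *H2-K1* and *Psmb9* were at −0.25, −0.22 and −0.44. The heavy chains thus had the smallest estimates of the 10 genes, and none of the 10 passed the fold threshold as well, against 0.478% of all genes. *B2m* and *H2-Eb1* kept an adjusted p under 0.1 in 28 of 28 omissions of a single library, and they were the only 2 of the 10 to do so without male SCFA 3 dpl replicate 3.

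From 7 to 14 dpl, over all libraries, *B2m* was the one gene of the 10 with an adjusted p under 0.1, against 0.055% of all tested genes in that direction. It fell by 0.59 ± 0.11 on the log2 scale (adjusted p = 0.0327, edgeR). Without the 4 libraries that stood apart it was at −0.56 (adjusted p = 0.0754, edgeR). Its lowest, median and highest values were 38.9, 75.1 and 119 CPM at 7 dpl and 39.7, 54.1 and 66.8 CPM at 14 dpl. All 10 genes were below 0 in this contrast, against 52.3% of all genes, and none passed the fold threshold, against 0.011%. With the first run of columns alone no gene of the 10 reached an adjusted p under 0.1 from 3 to 14 dpl, and *B2m* was at an adjusted p of 0.110 from 7 to 14 dpl.

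**Figure D3:**
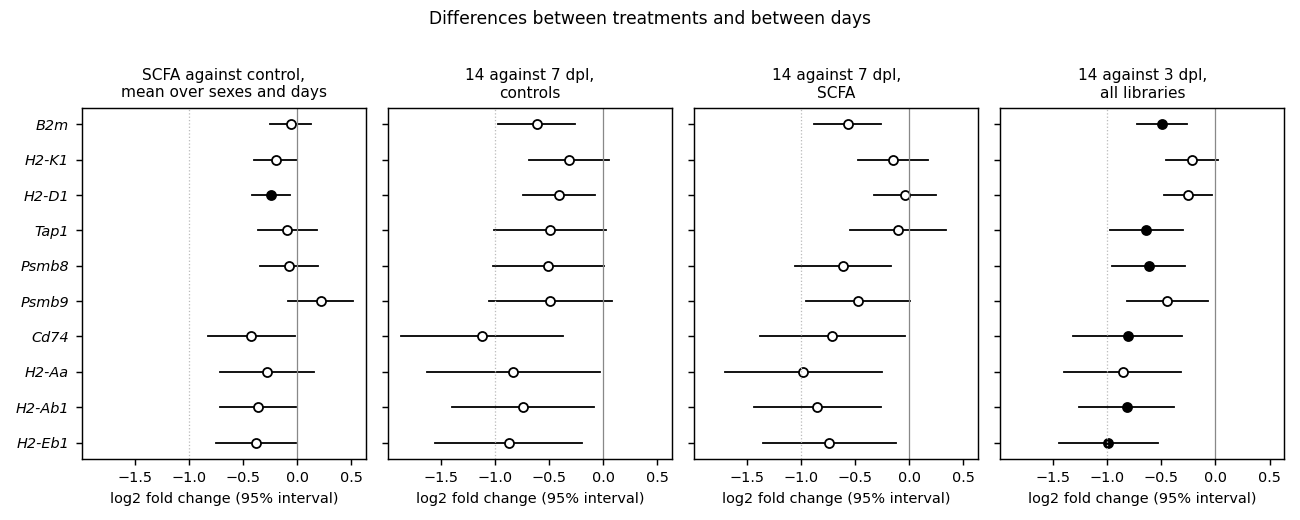
Log2 fold change with 95% interval (edgeR) of the 10 genes for SCFA against control averaged over sexes and days, and for the comparisons between days. The class II genes lie furthest left in the comparisons with 14 dpl, while *H2-K1* and *H2-D1* lie closer to 0 than the class II genes.

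Across libraries the class II genes varied together with higher correlations than the class I genes. These correlations were taken across the 43 libraries on log2(CPM + 1) with the means of the runs removed, and they describe libraries that share groups, depth and scaling. Pearson's r between pairs of class II genes ran from 0.863 to 0.886. Among class I genes it ran from 0.265 to 0.875 with a median of 0.593, and between the classes it had a median of 0.537. The highest class I pair was *H2-K1* with *H2-D1*, at 0.87, and *Psmb8* with *Psmb9* reached 0.76, while *H2-D1* with *Psmb9* gave the lowest value, 0.27. With the group means removed instead, the median over the class II pairs was 0.831, so these genes varied together within groups too.

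**Figure D4:**
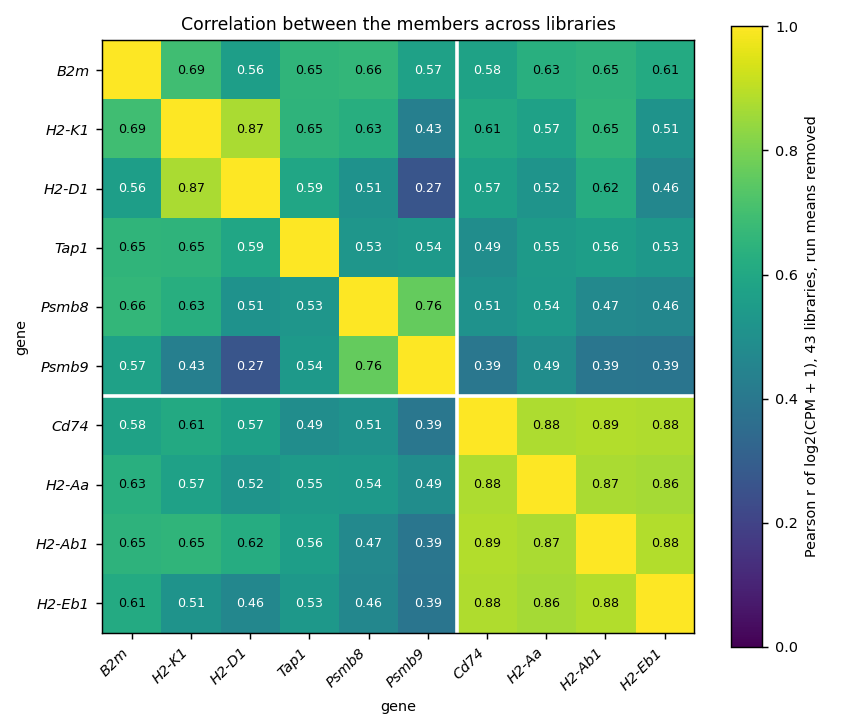
Pearson's r (colour scale) between each pair of the 10 genes across the 43 libraries, on log2(CPM + 1) with run means removed. The class II genes form a block with r from 0.863 to 0.886, and the class I genes share lower values, down to 0.265.

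The genes whose pattern was most like the class II mean over the 43 libraries were *Fcgr3* (r = 0.82), which encodes an Fcγ receptor of myeloid cells, then *Lyz2*, *Adgre1* and *C1qa* (0.73 each), myeloid and microglial genes. *Ifi27l2a* (0.72), *Slfn2* (0.71), *Ccl12* (0.69) and *Ucp2* (0.69) followed. The genes most like the class I mean were *Bst2* (0.87), *Irgm1* (0.84) and *Igtp* (0.82), all known as interferon-induced genes. Others were *Ctss* (0.81), *H2-T23* (0.81), *Ifi27l2a* (0.79) and *Lgals3bp* (0.79). Nearest neighbours were ranked over the tested genes without the 10 themselves.

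Marker lists moved with both classes. The summed CPM of 14 microglia markers followed the class I sum with r = 0.82 and the class II sum with r = 0.69 over the 43 libraries, and that of 10 interferon response genes followed them with r = 0.74 and 0.55. The microglia sum had a median of 136 CPM at 3 dpl (range 80.2 to 184), 115 at 7 dpl (81.1 to 175) and 91.1 at 14 dpl (64.7 to 112). The class II sum had medians of 22, 23.1 and 11.8 CPM on these days, and the class I sum 225, 208 and 186 CPM. Per 100 CPM of microglia markers the class II sum came to medians of 15.4, 17.2 and 13.4 CPM and the class I sum to 176, 189 and 186. By these medians the class I ratio of 14 dpl was not lower than that of 3 dpl, and the class II ratio was lower. The ranges at 3 and 14 dpl overlapped, at 8.41 to 25.2 and 7.38 to 21.7 for class II. For class I they were 131 to 205 and 159 to 226. The class I sum consists mostly of *H2-D1*, *B2m* and *H2-K1*, so it says little about *Tap1* or *Psmb8*. In bulk tissue fewer cells of a type and less RNA per cell cannot be told apart, and the part of these markers in the changes was not tested.

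**Figure D5:**
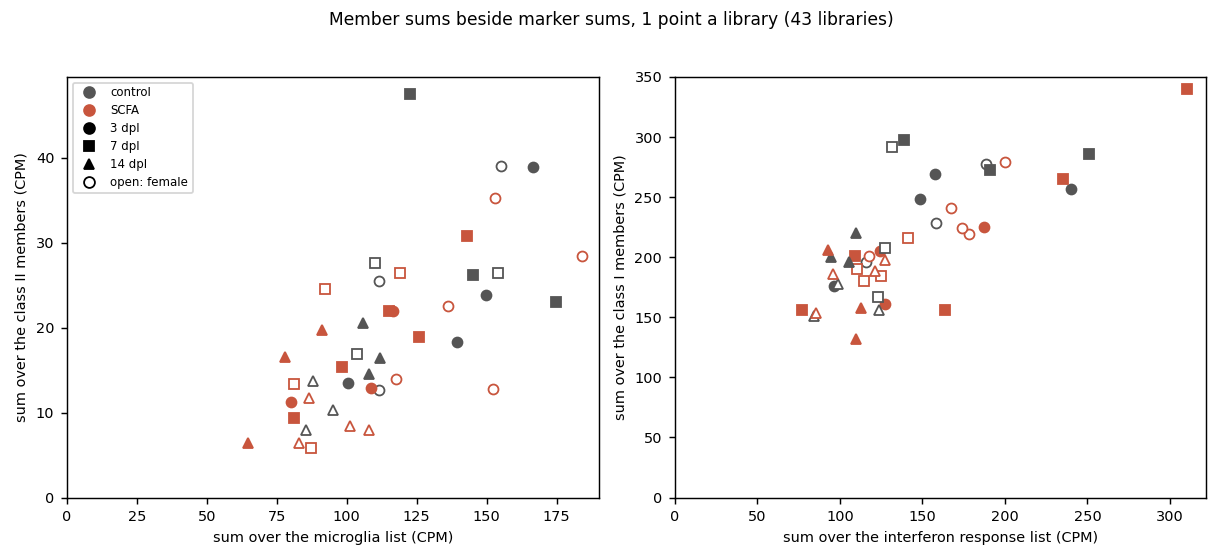
Left, summed CPM of the class II genes (vertical axis) against that of 14 microglia markers (horizontal axis) in the 43 libraries, by dpl. Right, summed CPM of the class I genes against that of the interferon response list. Libraries of 14 dpl lie low on both axes, with microglia sums from 64.7 to 112 CPM and interferon response sums from 84.2 to 127 CPM.

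From 3 to 14 dpl all of the 14 microglia markers were below 0, with a median of −0.47, and 5 fell with an adjusted p under 0.1 in edgeR's test, among them *C1qb* by 0.79 and *Fcrls* by 1.27. All of the 10 interferon response genes were below 0 as well, and 7 fell with an adjusted p under 0.1, such as *Bst2* by 0.87 and *Ifit1* by 0.94. Of all tested genes 47.6% were below 0, and 1.63% were lower with an adjusted p under 0.1. This contrast was chosen after the values had been seen, and the lists with earlier results of these data known. Markers of lymphocytes were close to the floor. None of the 5 B cell genes and 1 of the 8 T and NK cell genes, *Cd8a*, had counts enough to be tested, and of the 11 genes of monocytes, dendritic cells and neutrophils 6 were tested. *Ccr2*, a chemokine receptor of blood monocytes, was lower at 14 than at 3 dpl past both thresholds (adjusted p = 0.0035, edgeR), with at most 16 counts in any library. *Gfap*, a marker of reactive glia, fell by 1.02 (adjusted p = 0.00443, edgeR). Transcripts of the interferons themselves, *Ifng* and *Ifnb1*, stood at or under 3 counts in every library.

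Other genes of the pathway were taken from lists grouped by function. For SCFA against control averaged over sexes and days, 3 of the 9 tested class I heavy chain genes outside the 10 fell, with an adjusted p under 0.1 in edgeR's test. They were *H2-T23*, which encodes Qa-1, by 0.49 (adjusted p = 0.0119), *H2-T22* by 0.34 (0.0311) and *H2-Q10* by 0.76 (0.0815), and none rose. *H2-Q4*, the one with the highest mean level, was at 0.14 ± 0.08 (adjusted p = 0.196). *H2-Q10* was close to the detection floor, at a mean of 0.263 CPM, with at most 13 counts and more than 3 counts in 19 libraries. The heavy chain genes belong to a family of near-identical copies, so their counts are uncertain. Among the 10 tested genes of class I loading and peptide supply, *Tapbpl*, a relative of tapasin, fell by 0.29 (adjusted p = 0.0451) and *Erap1*, a peptide-trimming enzyme, rose by 0.15 (0.0436). The chaperones with the highest CPM of that list, *Calr* and *Canx*, were at −0.06 and 0.02. Of the 4 tested class II loading genes, *H2-DMa*, a chain of the peptide exchange factor, fell by 0.29 (0.0224) and *Ifi30*, a lysosomal thiol reductase, fell by 0.20 (0.0782), while *Ctss*, the protease that cuts the invariant chain, was at −0.07 ± 0.09. By this threshold 34.7% of all genes were called, and none of these genes passed the fold threshold.

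Of the 10 tested MHC transcription factor genes, *Nfya* and *Nfyb*, subunits of the factor that binds the Y box printed above, rose by 0.17 and 0.21 with SCFA (adjusted p = 0.0133 and 0.000701, edgeR). *Rfx5*, a subunit of the factor that binds the neighbouring X box, fell by 0.16 (adjusted p = 0.0582). *Ciita*, the class II transactivator, and *Nlrc5*, its class I counterpart, were low, at a mean of 0.589 and 1.11 CPM. *Nlrc5* was lower at 14 than at 3 dpl by 1.29 ± 0.33 on the log2 scale (adjusted p = 0.0417, edgeR), past both thresholds. The interferon receptor gene *Ifnar1* fell by 0.27 with SCFA (adjusted p = 0.000158, edgeR), 1 of 4 tested genes of interferon receptors and ligands. Among the interferon response genes *Irf7* fell by 0.25 (adjusted p = 0.0621) and the median of the 10 was 0.09. None of the 3 costimulation genes and none of the 3 constitutive proteasome genes reached an adjusted p under 0.1. In this mean comparison of SCFA with control 34.7% of all tested genes passed that threshold. Single genes that passed it are thus no result about their lists.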

How the data were processed

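The authors deposited gene counts, 1 column per library, as whole numbers of reads per Ensembl gene. The labels name mm10 and DESeq2, and the aligner and the strand setting are not given in the sources used here. Gene names and coordinates came from GENCODE M21 (GRCm38), which named 54409 of 54532 genes. Groups were taken from the sample titles. In R 4.3.3, edgeR 4.0.16 was run with TMM scaling, filterByExpr (18197 genes kept) and a quasi-likelihood fit of 12 groups plus the run of columns. P-values were Benjamini-Hochberg adjusted over all genes tested. A called gene had an adjusted p under 0.1 and a log2 fold change beyond 1 in either direction. Standard errors are the fold change divided by the root of F. Interaction terms tested differences between sexes. Nothing says that libraries of a group came from separate cages, so p-values measure the spread between these pools. The 10 genes and the lists were chosen with earlier results of these data known. From the other lists the called genes or those with the highest mean CPM were named, with the 8 nearest genes by r for each class (1 is not reported here), and list genes named for an adjusted p alone were chosen after their values were seen. The alternatives were DESeq2 1.42.0, other scaling, other count filters, no block for the runs, a replicate block, the libraries the study lists, the first run alone, and each library left out. The code was tested on simulated counts.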

Additional observations from a re-analysis of the deposited data

Results flagged for a closer look

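Within groups of 4 or 5 libraries, the highest or lowest library was compared with its nearest neighbour by Dixon's rule, in 50 sets of values. Chance passes about 1 in 20 such sets, and 2 passed, both in male SCFA mice at 7 dpl. *H2-K1* reached 90.0 CPM in replicate 5, where the other 4 libraries held 32.4 to 48.8 CPM. *Psmb9* reached 10.6 CPM in replicate 3, where the others held 2.08 to 4.45 CPM, and that library also had a low photoreceptor sum, 44843 CPM.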

How the results depend on the processing

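With the libraries that the study lists, 2 of the 10 genes were called in males at 7 dpl (*Cd74* and *H2-Eb1*) and 1 in females at 14 dpl, *Psmb9*, where the controls kept were of the second run and the SCFA libraries of the first. Without a filter on low counts (35603 genes tested) *Cd74* was the 1 gene called from 7 to 14 dpl in controls. By the adjusted p alone, 1 gene passed in males at 7 dpl, 1 in the mean over sexes and days, 6 from 3 to 14 dpl and 1 from 7 to 14 dpl over all libraries. Leaving out single libraries gave 0 to 1 called genes from 3 to 14 dpl. With a replicate block 1 gene was called from 3 to 14 dpl (*H2-Eb1*, −1.01). No gene of the 10 was called in the other comparisons and settings run.

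Of 190 estimates, 10 genes in 19 comparisons, 75 changed sign under at least 1 alternative, and the largest of them was 0.56 on the log2 scale. Among those larger than their standard error, directions turned for *Psmb9* in males at 7 dpl with the libraries the study lists (−0.27). They turned for *H2-K1* in females at 7 dpl with those libraries (0.014) and without the 4 libraries that stood apart (0.079), and single omissions gave −0.51 to 0.044, the highest without female control replicate 2. Without those 4 libraries *H2-D1* in females at 7 dpl was at 0.022 and the sex difference in the *Psmb9* response at 7 dpl at −0.013. The cause was not tested. Replicate numbers did not pair the libraries, since the deviations of 18 same-numbered pairs correlated from −0.284 to 0.264. With the replicate block, which called 1 gene from 3 to 14 dpl, *B2m* from 7 to 14 dpl had an adjusted p of 0.101 (0.18 with no block for the runs, edgeR).

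Over all tested genes the counts of calls depended on the setting. They ran from 125 to 820 in males at 7 dpl and from 0 to 651 in females at 14 dpl. In the lowest library *H2-Aa*, *H2-Eb1*, *H2-Ab1*, *Psmb9* and *Psmb8* held only 17 to 30 counts, which limits their precision.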
